A study of Arabidopsis thaliana with 9 samples.

Results

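The fermentation and hypoxia-response genes of Arabidopsis (Arabidopsis thaliana) examined here are 10 loci of 32310 in the data: the enzymes ADH1, PDC1, PDC2 and LDH, the phytoglobin PGB1, and the group VII ethylene response factors (ERFs) HRE1, HRE2, RAP2.2, RAP2.3 and RAP2.12. They were chosen by their locus identifiers, with earlier results of these data known, and every transcript of a locus was summed. RNA had been sequenced from wild-type Col-0 seedlings kept at 22 °C (0 h) or moved to 4 °C for 3 h or 12 h, with 3 libraries per group, each from a pool of seedlings grown on its own plates. The control was collected at ZT4 (hours after lights on) and the cold samples at ZT7 and ZT16, and the cold samples stood in light of about 25 µE, against about 100 µE for the control. No control was kept at 22 °C until the later hours, so temperature, light and time of day cannot be told apart in any comparison with 22 °C. The source is given as 10-d-old seedlings, and the cold treatment is placed at 12 d.

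When oxygen runs short, plant cells keep glycolysis going by fermentation. Pyruvate decarboxylase (PDC) turns pyruvate into acetaldehyde, alcohol dehydrogenase (ADH) reduces this to ethanol, and lactate dehydrogenase (LDH) reduces pyruvate to lactate; both reductions give back NAD+. PGB1 is a class 1 phytoglobin, a heme protein that removes nitric oxide. The group VII ERFs are the transcription factors that turn on many of these genes. With oxygen present, the cysteine that follows their first methionine is oxidized by plant cysteine oxidases (PCOs), arginine is then added by the transferases ATE1 and ATE2, and the protein is marked for breakdown by the ligase PRT6. ADH1 is also a known cold-induced gene.

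The 5 ERFs share this start. The first 30 coding bases are shown 5′ to 3′ because the second codon, in capitals, decides whether a protein can enter that route; the sequences were read from the RefSeq TAIR10.1 genome.
RAP2.2: atgTGTggaggagctataatctccgatttc
RAP2.12: atgTGTggaggagctataatatccgatttc
RAP2.3: atgTGTggcggtgctattatttccgattat
HRE1, transcripts 2 and 3: atgTGCggaggagctgtaatttccgattac
HRE2: atgTGTgggggagctatcatttctgatttc
HRE1, transcript 1: atgTCTcaaagctttgaactttatccatgg
The first 5 lie at chr3:4738971-4739000 (minus strand), chr1:20135242-20135271 (plus), chr3:5705784-5705813 (plus), chr1:27241904-27241933 (plus) and chr2:19503461-19503490 (minus). TGT and TGC both encode cysteine, and the codons for 2 glycines follow. Among 27407 coding genes, 186 (0.679%) have a cysteine codon in second place in their first transcript model, and a cysteine codon followed by 2 glycine codons was found in 5 loci in any transcript model, which are these 5 ERFs. HRE1 is the one whose annotated transcripts differ here. Its transcript 1 starts at another ATG (chr1:27242142-27242171, plus strand) and carries TCT, a serine codon.

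The 9 libraries hold 15910839 to 24291683 assigned reads. Over log2 CPM (read counts scaled to library size) of the genes tested, r was 0.98 to 0.988 within groups and 0.894 to 0.962 between groups. By r, no library stood apart from its group. The leaf genes and root genes used as markers were present in all libraries. Summed over 11 root markers, TPM (a transcript level corrected for length and library size) ranged from 3127 to 3547 at 12 h and 3503 to 4483 at 3 h, against 3086 to 4022 at 22 °C, most of it from the root glucosidase PYK10. Of these markers, 1 was called higher (EXPA7) and 3 lower (SHR, SCR and MRN1) at 12 h. The 6 shoot markers summed to 35599 to 40970 TPM at 12 h and 39537 to 45332 at 3 h, against 44965 to 47049 at 22 °C. By these sums, replicate 1 at 3 h did stand apart. It had 4482.7 root TPM, against 3502.8 and 3506.5, and 39537 shoot TPM, against 45332 and 45093. Replicate 1 at 22 °C had 3086.3 root TPM, against 4022.3 and 3895.2. Seed storage transcripts summed to at most 1.64 TPM in any library. The part of root or shoot tissue in the results was not tested, and in whole seedlings fewer cells of a type and less RNA per cell cannot be told apart.

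All 10 genes passed the filter on low counts. Calls come from edgeR's quasi-likelihood F test over 20460 genes and need both an adjusted p below 0.05 and a log2 change of 0.5 or more in either direction, which 10.5% of the genes met at 3 h and 33.1% at 12 h. After 3 h, 5 of the 10 were called higher (PDC2, LDH, HRE1, RAP2.2 and RAP2.12) and 3 lower (ADH1, PGB1 and HRE2), where 7.05% of all genes tested were higher and 3.47% lower. After 12 h, 6 were called higher (ADH1, PDC1, PDC2, LDH, RAP2.2 and RAP2.12), where 15.5% of all genes were. None was called lower by edgeR or by DESeq2 at 12 h, where 17.7% of all genes were lower in edgeR; 1 (RAP2.3) was lower at an unadjusted p under 0.05. The median log2 fold change of the 10 genes was 0.28 at 3 h and 1.15 at 12 h, against −0.0051 and −0.026 for all genes tested. Both comparisons use the same 22 °C libraries. Groups of 3 libraries often do not overlap. In normalized counts this held for 33.9% of all genes tested at 3 h and 56.8% at 12 h against 22 °C. For 12 h against 3 h it held for 49.5%.

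**Figure D1:**
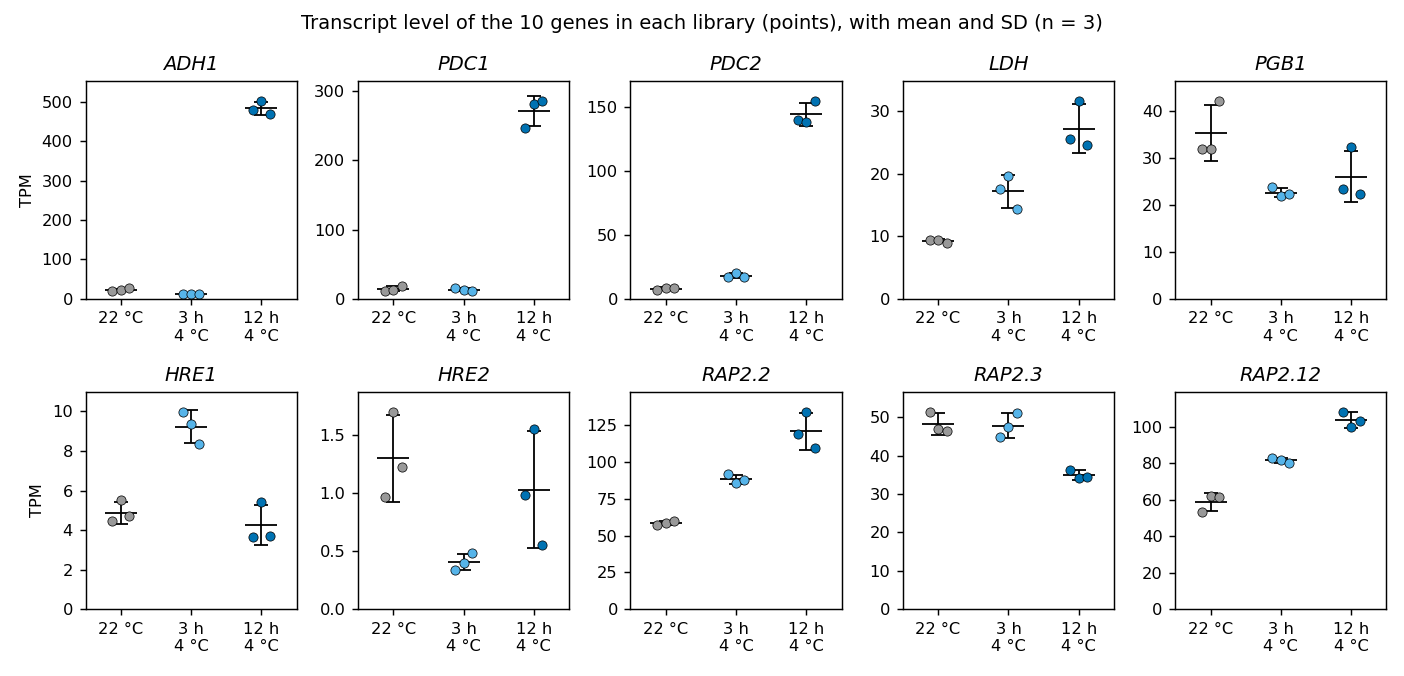
Level in TPM (vertical axis, from 0, a scale of its own for each gene) of the 10 genes in the 22 °C control and after 3 h or 12 h of cold; points are libraries, the horizontal line is the mean and the error bar the SD (n = 3). ADH1, PDC1 and PDC2 stand at 138 to 503 TPM at 12 h, and all their other libraries are under 27 TPM.

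ADH1, PDC1 and PDC2 encode enzymes of the pathway to ethanol and moved together at 12 h, but not at 3 h. ADH1 (AT1G77120, chr1:28975255-28977417) had 20.8, 22.4 and 26.01 TPM at 22 °C, 12.97, 10.9 and 11.5 TPM after 3 h, and 479.5, 503 and 471 TPM after 12 h. The 3 h libraries all lie under the 22 °C libraries, and the 12 h libraries lie far above both. ADH1 fell at 3 h by 0.89 on the log2 scale (SE 0.086, adjusted p = 1.4e-06, edgeR) and was 24.6-fold higher at 12 h (log2 fold change 4.62, SE 0.090, adjusted p = 7.0e-15). From 3 h to 12 h its difference was 45.7-fold (log2 5.51, SE 0.095), which is rank 8 of 20460 among all genes ordered from the largest rise.

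PDC1 (AT4G33070, chr4:15952257-15954803) had 11.7, 12.7 and 18.8 TPM at 22 °C, 15.1, 12.6 and 11.2 TPM after 3 h, and 246, 281 and 286 TPM after 12 h. The libraries of 3 h and 22 °C overlap, and its log2 fold change at 3 h was −0.089 (SE 0.14, 95% interval −0.39 to 0.21). At 12 h PDC1 was 21.7-fold higher than at 22 °C (log2 4.44, SE 0.14, adjusted p = 7.6e-13). A share of 2.61% of its 31-base words also occurs in other loci, most of all in PDC4, a paralog at under 1.4 TPM in all libraries.

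PDC2 (AT5G54960, chr5:22310553-22312832), the second pyruvate decarboxylase, was the one of these enzymes that had already risen at 3 h together with LDH. Its libraries held 6.83, 8.35 and 8.71 TPM at 22 °C, 16.7, 20.3 and 16.95 TPM after 3 h, and 139.7, 138 and 155 TPM after 12 h. No group overlaps another. Against 22 °C it was 2.37-fold higher at 3 h (log2 1.24, SE 0.11, adjusted p = 4.4e-07) and 20.7-fold higher at 12 h (log2 4.37, SE 0.11, adjusted p = 8.1e-14). Of the summed TPM of PDC1 to PDC4, PDC2 made up 47.4% to 56.6% in the 3 h libraries and 32.8% to 36.0% in the 12 h libraries, against 29.7% to 34.9% at 22 °C.

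At 12 h the increases of ADH1, PDC1 and PDC2 were of similar size, with 95% intervals of 4.43 to 4.81, 4.13 to 4.75 and 4.13 to 4.61 on the log2 scale. Their summed level was 866 to 922 TPM at 12 h and 39.7 to 44.7 TPM at 3 h, against 39.3 to 53.5 TPM at 22 °C. In the summed level, the 3 h and 22 °C groups overlap, while ADH1 is lower and PDC2 higher within it.

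LDH (AT4G17260, chr4:9673897-9675540), annotated as a member of the lactate and malate dehydrogenase family, opens the route to lactate. It had 9.44, 9.42 and 8.97 TPM at 22 °C, 17.6, 19.6 and 14.4 TPM after 3 h, and 25.5, 31.6 and 24.5 TPM after 12 h. The 3 groups do not overlap and rise from 22 °C to 3 h to 12 h. LDH was 1.92-fold higher at 3 h (log2 0.94, SE 0.13, adjusted p = 6.1e-05) and 3.34-fold higher at 12 h (log2 1.74, SE 0.13, adjusted p = 1.2e-08). Its level at 12 h was 27.2 ± 3.87 TPM, beside 484 ± 16.7 TPM for ADH1 (SD, n = 3 each).

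Short runs of bases in the promoters, 250 bases before to 50 after each annotated start, differ among these enzymes. CACGTG, the G-box bound by bZIP factors, was found in ADH1 and at a pair of positions in PDC2, among the 7.68% of 27443 genes that have it on either strand. The following 30-base stretches show these with the motif in capitals, because ADH1 and PDC2 are the members in which it was found.
ADH1, chr1:28975223-28975252, motif at −20 from the start: aacgagaaatgcCACGTGgacgaatactag
PDC2, chr5:22313041-22313070, motif at −226: ttctttttgagtCACGTGgtattgacacga
PDC2, chr5:22312884-22312913, motif at −69: actatataaggaCACGTGtcaatctcagag
No CACGTG lies in this window of PDC1, which also rose at 12 h. A link between the motif and the rise was not tested. CCGAC, the core of the element bound by the cold-induced CBF factors, was found in PDC1, PDC2 and LDH and in 15.0% of all genes.
PDC1, chr4:15954940-15954969, motif at −154: atgcattttagaCCGACataaacaataatt
AAACCA, a run known from promoters of anaerobic genes, was found in ADH1, PDC1, LDH and RAP2.2 and in 32.0% of all genes. AAAATATCT, the evening element of the clock, was found in PDC2 and RAP2.2 and in 2.82% of all genes, and GCCGCC, the GCC box of ERFs, in PDC2 and in 2.57%. No motif of these overlaps another in letters, all were searched on both strands, and a match describes the letters and not a bound site.

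**Figure D2:**
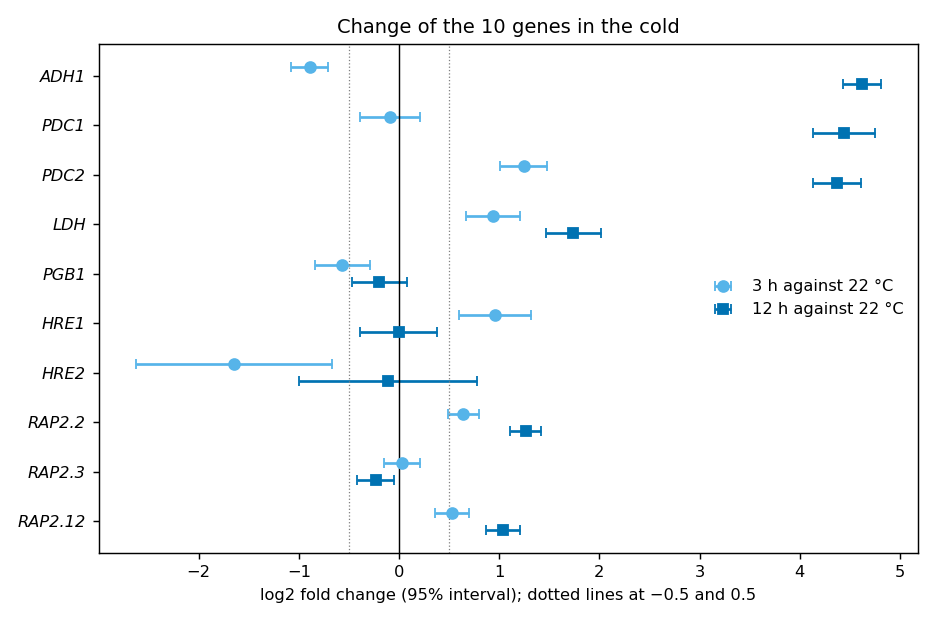
Log2 fold change against 22 °C (horizontal axis) of the 10 genes at 3 h (circles) and 12 h (squares) with 95% intervals from the edgeR fit; dotted lines mark the fold minimum of 0.5 in each direction. ADH1, PDC1 and PDC2 lie between 4.37 and 4.62 at 12 h, and at 3 h ADH1 is on the lower and PDC2 on the higher side.

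RAP2.2 and RAP2.12, the ERFs with the most transcript, rose at both times, by modest amounts. RAP2.2 (AT3G14230, chr3:4737120-4739298) had 56.8, 58.7 and 59.9 TPM at 22 °C, 91.5, 85.5 and 87.6 TPM after 3 h, and 119, 134 and 109 TPM after 12 h. The groups do not overlap. RAP2.2 was 1.56-fold higher at 3 h (log2 0.64, SE 0.073, adjusted p = 8.9e-06) and 2.40-fold higher at 12 h (log2 1.26, SE 0.073, adjusted p = 7.5e-10).

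RAP2.12 (AT1G53910, chr1:20134844-20137013) held 53.3, 62.1 and 61.3 TPM at 22 °C, 82.8, 81.6 and 80.2 TPM after 3 h, and 108, 99.6 and 103 TPM after 12 h, again without overlap. It was 1.44-fold higher at 3 h (log2 0.53, SE 0.079, adjusted p = 0.00015) and 2.05-fold higher at 12 h (log2 1.03, SE 0.079, adjusted p = 2.2e-08). The 3 h value is near the fold minimum and was 0.47 with upper quartile scaling and 0.46 without replicate 1 at 22 °C, which ends the call.

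RAP2.3 (AT3G16770, chr3:5705541-5707084) did not follow them. It had 51.4, 46.8 and 46.3 TPM at 22 °C, 44.9, 47.4 and 51.1 TPM after 3 h, and 36.3, 34.2 and 34.4 TPM after 12 h. In TPM the 12 h libraries lie under the others, and in normalized counts the gap is narrower: 49.3, 42.1 and 45.0 CPM at 12 h, against 57.8, 51.9 and 50.7 CPM at 22 °C. Its log2 fold change was 0.028 at 3 h (SE 0.086) and −0.23 at 12 h (SE 0.087, adjusted p = 0.037, edgeR), under the fold minimum.

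HRE1 and HRE2, which unlike the RAP2 genes are themselves known to be induced by low oxygen, were the ERFs with the least transcript. HRE1 (AT1G72360, chr1:27241696-27242968) had 4.44, 5.50 and 4.71 TPM at 22 °C, 9.99, 9.35 and 8.33 TPM after 3 h, and 3.68, 5.42 and 3.71 TPM after 12 h. The 3 h libraries stand above both other groups, which overlap. HRE1 was 1.94-fold higher at 3 h (log2 0.96, SE 0.17, adjusted p = 0.00075) and did not pass the test at 12 h, where its log2 fold change was −0.00048 (SE 0.18, 95% interval −0.38 to 0.38). Between 12 h and 3 h it fell by 0.96 on the log2 scale (SE 0.17, adjusted p = 0.00037).

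HRE2 (AT2G47520, chr2:19502776-19503702) rests on few reads: 18, 36 and 21 at 22 °C, 8, 7 and 10 after 3 h, and 20, 27 and 9 after 12 h. These are 0.968, 1.70 and 1.22 TPM, then 0.340, 0.401 and 0.481 TPM, then 0.981, 1.55 and 0.552 TPM. The 3 h libraries are the lowest of all, and those of 12 h and 22 °C overlap. The log2 fold change was −1.65 at 3 h (SE 0.46, adjusted p = 0.021), and the call was lost without replicate 2 or 3 at 22 °C (adjusted p = 0.11 and 0.051) and without replicate 1 or 2 at 3 h (0.081 and 0.069), and with counts from TPM (0.068). At 12 h it was −0.11 (SE 0.42, 95% interval −0.99 to 0.78).

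The 5 ERFs summed to 251 to 275 TPM at 12 h and 224 to 229 TPM at 3 h, against 167 to 175 TPM at 22 °C. RAP2.2 made up 43.5% to 48.8% of the sum at 12 h, against 33.6% to 34.5% at 22 °C. RAP2.3 made up 12.4% to 13.7% at 12 h, against 26.7% to 30.8% at 22 °C. HRE1 and HRE2 together stayed a small part, with means of 1.61% and 0.384% at 12 h, against 2.84% and 0.753% at 22 °C.

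**Figure D3:**
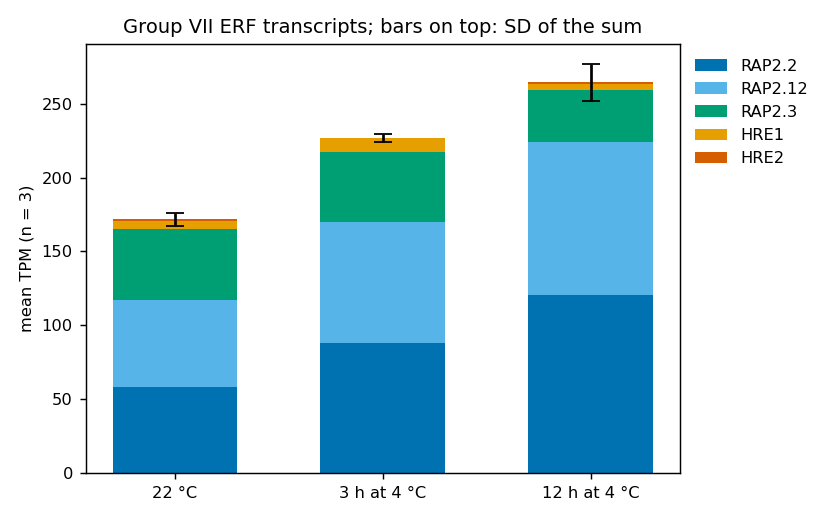
Mean TPM of the 5 group VII ERFs, stacked, for the 22 °C control and after 3 h or 12 h of cold (n = 3 libraries each); error bars are the SD of the summed level. The sum is 172 ± 4.18 TPM at 22 °C, 227 ± 2.71 TPM at 3 h and 264 ± 12.2 TPM at 12 h, and RAP2.2 and RAP2.12 take most of the increase.

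Of the ERFs, HRE1, RAP2.2 and RAP2.12 have several transcripts in the data. HRE1's transcript 2, which has the cysteine codon shown above, held 77.5% to 97.4% of its reads in the 9 libraries, and transcript 1 held 2.57% to 19.5%. HRE1 could not be tested for transcript usage because its other transcripts had too few reads. RAP2.2 and RAP2.12 were not called for a change of usage in any comparison (edgeR's diffSpliceDGE, adjusted p of 0.64 or more), with largest shifts of 3.27 and 3.99 percentage points at 12 h against 22 °C. Their annotated transcripts share the coding start, and 163 of 6739 loci (2.42%) were called for this comparison.

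PGB1 (AT2G16060, chr2:6982531-6983777) had 31.9, 31.8 and 42.2 TPM at 22 °C, 23.7, 21.9 and 22.4 TPM after 3 h, and 23.4, 32.3 and 22.3 TPM after 12 h. The 3 h libraries lie under those of 22 °C, and in TPM the 12 h group overlaps both. In normalized counts the 12 h libraries (13.8, 18.2 and 14.2 CPM) lie above those of 3 h (12.1, 11.6 and 12.1 CPM). PGB1 fell by 0.57 on the log2 scale at 3 h (SE 0.13, adjusted p = 0.0054), and by 0.45 without replicate 3 at 22 °C, which is under the fold minimum. Its log2 fold change at 12 h was −0.20 (SE 0.13, 95% interval −0.47 to 0.076). Of the other phytoglobins, PGB2 was called higher at 12 h (log2 0.59, SE 0.12), a call that upper quartile scaling ends, and PGB3 was not called (log2 −0.46) but passed as lower with that scaling.

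The order of the levels differed between 22 °C, 3 h and 12 h. At 22 °C RAP2.12 and RAP2.2 led, with overlapping libraries, followed by RAP2.3, PGB1, ADH1, PDC1, LDH, PDC2, HRE1 and HRE2, each pair of neighbours without overlap. At 3 h RAP2.2, RAP2.12, RAP2.3 and PGB1 led, and PDC2, LDH, PDC1 and ADH1 followed with overlap between neighbours. At 12 h ADH1, PDC1 and PDC2 stood above RAP2.2, RAP2.12 and RAP2.3, and of the neighbours in the order only LDH and PGB1 overlapped. These orders depend on the transcript length used for TPM. With annotated in place of effective lengths, mean ADH1 (30.9 TPM) stood above PGB1 (28.5 TPM) at 22 °C. At 3 h PDC2 (20.2 TPM) then stood above PGB1 (18.6 TPM).

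For the comparison within the cold, 7 of the 10 genes were called higher at 12 h than at 3 h, where 11.0% of all genes tested were, and 1 (HRE1) lower, where 14.8% were (25.8% in either direction). The rises ranged from 0.51 for RAP2.12 to 5.51 for ADH1 on the log2 scale. PGB1 (0.37) and RAP2.3 (−0.26) were not called. RAP2.12 was under the fold minimum without replicate 1 at 12 h (0.47), with upper quartile scaling (0.43) and with at least 10 reads in every library (0.4997).

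Around the ethanol route, 15 other genes of sucrose entry, glycolysis and pyruvate use were examined. At 3 h, 1 was called higher and 2 lower, where 7.05% and 3.47% of all genes were. At 12 h, 4 were higher and 3 lower, where 15.5% and 17.7% of all genes were. SUS1, a sucrose synthase that feeds sucrose into glycolysis, had 16.8, 17.5 and 18.6 TPM at 22 °C, 18.5, 18.3 and 16.3 TPM at 3 h, and 335, 353 and 316 TPM at 12 h. Its log2 fold change was 0.0093 at 3 h (SE 0.079) and 4.47 at 12 h (SE 0.085, adjusted p = 6.5e-15), a size like that of ADH1. SUS4, its close paralog, was lower at both times (log2 −1.03 and −0.94, SE 0.17 each). PFK7, a phosphofructokinase, was higher at 12 h (1.15, SE 0.11), and PPDK, pyruvate orthophosphate dikinase, was lower at 3 h (−0.56, SE 0.081) and at 12 h (−0.77, SE 0.082). PDC3 was higher at 3 h (0.91, SE 0.25), at 2.39 ± 0.562 TPM against 1.301 ± 0.303 TPM at 22 °C, but shares 18.4% of its 31-base words with other loci, mostly PDC4, so that its reads are less certain, and it was not called without replicate 3 at 22 °C or replicate 1 at 3 h. The other called genes of this list at 12 h, named after their values were seen, were ALAAT2 (1.02, SE 0.16) and PFK3 (0.52, SE 0.16), higher, and PDC4 (−0.90), lower. PFK3 is near the fold minimum. The PDC4 call is near the threshold (SE 0.36, adjusted p = 0.0498, edgeR) and rests on 21, 16 and 12 reads at 12 h. PDC4 shares 20.2% of its 31-base words with other loci, mostly PDC3, so its reads are less certain as well. The aldehyde dehydrogenases ALDH2B4, ALDH2B7 and ALDH2C4, which oxidize acetaldehyde or related aldehydes, were not called, with log2 fold changes of −0.14, −0.024 and 0.46 at 12 h. ALDH2C4 passed the threshold on adjusted p at 12 h (SE 0.079, adjusted p = 0.00014, edgeR) and missed only the fold minimum.

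For the oxygen-dependent route that acts on the ERF proteins, a list of 17 genes was examined, of which 16 were tested. This list, called the oxygen route below, also holds HRA1, VRN2, ZPR2, ACBP1 and ACBP2, which are not enzymes of the route. HRA1 is among the genes counted as lower at both times. At 3 h, 3 were called lower, where 3.47% of all genes were, and at 12 h, 4, where 17.7% of all genes were. HRA1, a repressor that is itself induced with these genes and restrains RAP2.12, had 0.237, 0.198 and 0.107 TPM at 12 h and 0.311, 0.389 and 0.346 TPM at 3 h, against 2.00, 1.13 and 2.28 TPM at 22 °C. It was lower at both times (log2 −2.30, SE 0.35, and −3.02, SE 0.39). PCO1 and PCO2, the cysteine oxidases whose own transcripts rise under low oxygen, were lower as well, with log2 fold changes of −1.23 at 3 h and −2.06 at 12 h for PCO2 (SE 0.28 and 0.31) and of −0.82 and −1.35 for PCO1 (SE 0.24 and 0.26). ATE2 was lower at 12 h (−1.303, SE 0.16). PCO4, PCO5, ATE1 and PRT6, other enzymes of the route, were not called against 22 °C at either time, with log2 fold changes of −0.27 to 0.43 at 12 h. PCO4 passed the threshold on adjusted p at 12 h (0.43, SE 0.12, adjusted p = 0.0086, edgeR) and missed only the fold minimum. It was called higher for 12 h against 3 h (0.53, SE 0.12), a call that upper quartile scaling ends.

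A wider list held 45 other loci known to rise under low oxygen, of which 43 were tested. At 3 h, 13 were called higher and 11 lower, where 7.05% and 3.47% of all genes were, and at 12 h, 14 were higher and 20 lower, where 15.5% and 17.7% were. Some of these genes passed the filter on low counts through the group where they are high. NIP2;1 had 17, 25 and 13 reads at 22 °C and 0 to 4 in the cold libraries, so it could only be called lower. AT3G02840, called higher, is the reverse, with 5, 14 and 3 reads at 22 °C and 127, 48 and 84 at 3 h. With at least 10 reads required in every library, 7 were lower at 3 h and 13 at 12 h. The share of all genes called under that filter is not given here. The list's median log2 fold change was 0.0093 at 3 h and −0.47 at 12 h. It shares SUS1, SUS4 and PFK6 with the list of carbon genes, and HRA1, PCO1 and PCO2 with the oxygen route. Among the genes with the smallest p were AT5G47060, a DUF581 protein (log2 2.89, SE 0.091, at 3 h and 4.63, SE 0.096, at 12 h), SRO5 (3.91, SE 0.14, and 3.44, SE 0.14), and AT1G63090, which is PP2-A11, a phloem protein of the lectin family (1.81, SE 0.074, and 2.18, SE 0.075). Genes on the other side, named after their values were seen, were SAD6, an acyl-ACP desaturase (−1.91 and −2.62), LBD41, a LOB-domain protein (−0.67 and −1.54), and the ethylene receptor ETR2 (−1.35 at 12 h). EXL1 was higher at 3 h (1.20) and lower at 12 h (−2.13). The largest rises on the list were those of CML38 at 3 h (4.91, SE 0.21) and AT2G15880 at 12 h (5.80, SE 0.22).

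**Figure D4:**
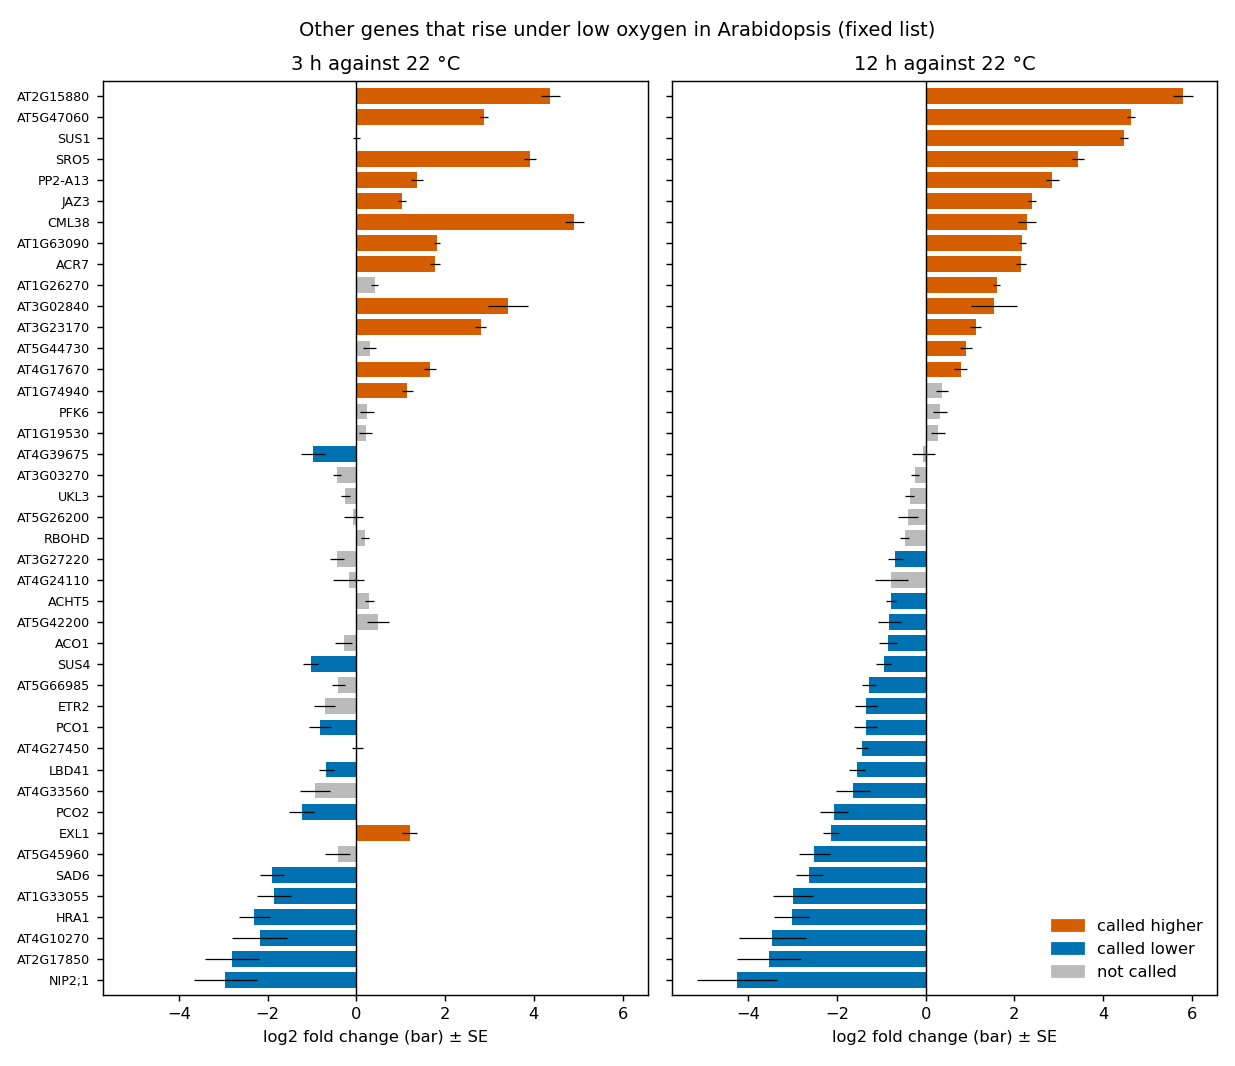
Log2 fold change against 22 °C (bars, horizontal axis) with SE for the 43 tested genes of the wider low-oxygen list at 3 h (left) and 12 h (right), in the order of the 12 h value; orange marks genes called higher, blue lower and grey not called. AT2G15880 stands highest at 12 h (5.80), above AT5G47060 (4.63) and SUS1 (4.47). At 12 h, 14 genes are called higher and 20, among them HRA1, PCO1 and PCO2, lower.

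Of 9 further regulators tied to ADH1 or to these pathways, 3 were called at 12 h, a share like the 33.1% of all genes. Higher were the G-box factors GBF2 (log2 1.71, SE 0.097) and GBF3 (0.73, SE 0.13), and WRKY33 was lower (−0.55, SE 0.074), a call that is lost without replicate 2 at 12 h. GBF2 had 48.9, 60.7 and 50.4 TPM at 12 h, against 17.2, 20.8 and 18.6 TPM at 22 °C. At 3 h GBF2 had a log2 fold change of 0.18 (SE 0.098) and was not called.

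Over the 9 libraries, the genes whose log2 CPM was most like that of ADH1 were AT2G42270, a U5 snRNP helicase (Pearson r = 0.998), the glutathione transferase AT2G29450 (r = 0.997) and AT1G29470, an S-adenosylmethionine-dependent methyltransferase (r = 0.997). They share ADH1's direction at each step but in smaller amounts, with log2 fold changes of −0.38, −0.23 and −0.15 at 3 h and 1.97, 0.81 and 1.21 at 12 h. The libraries form 3 groups, so r describes mostly the differences between them.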

How the data were processed

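RNA-seq libraries (strand-specific) had been cleaned of rRNA reads with SortMeRNA and of adapters with Trimmomatic, and quantified by the authors with Salmon against ARAPORT11 transcripts. The authors deposited estimated counts, neither scaled nor pooled, and TPM, in which Salmon divides estimated counts by effective length. Both were summed over the transcripts of a locus, and counts were rounded. Members and gene lists were chosen with earlier results of these data known. The lists come from general knowledge.

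Counts were filtered with filterByExpr, scaled with TMM, and tested with edgeR 4.0.16 (R 4.3.3, limma 3.58.1) in 1 model over 9 libraries, with Benjamini-Hochberg adjustment over 20460 genes. CPM are TMM-normalized. TPM order genes by level, and fold changes come from counts. A change of transcript usage needed an adjusted p below 0.05 and 10 or more percentage points of shift. On counts simulated with a fixed spread for 12 h against 22 °C, 134 of 134 well-covered genes changed by 1 or 2 on the log2 scale were found. Found here means an adjusted p below 0.05, without the fold minimum. Smaller changes and genes with few reads, such as HRE2, are not covered by this count. Of the transcripts in the data, 53045 of 53467 had a RefSeq TAIR10.1 model, all of equal length. The rule for naming genes took the members, the 3 called genes with the smallest p of each list at 3 h and at 12 h, and the 3 most correlated with ADH1; other list genes named in the text were chosen after their values were seen. Alternatives were DESeq2 1.42.0, its size factors, upper quartile factors, other filters and thresholds, counts from TPM, the compared groups alone, a replicate block, and leaving out each library. Python 3.11.15, pandas 2.3.3 and matplotlib 3.10.9 were used for tables and figures.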

Additional observations from a re-analysis of the deposited data

Results flagged for a closer look

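For 8 of the 10 genes the effect at 12 h differed from the effect at 3 h by the test of the difference itself, which is the comparison of 12 h with 3 h, since both effects share the 22 °C libraries; 25.8% of all genes tested were called in it. The difference on the log2 scale was 5.51 for ADH1, 4.53 for PDC1, 3.13 for PDC2, 0.801 for LDH, 1.54 for HRE2, 0.623 for RAP2.2 and 0.508 for RAP2.12. It was −0.957 for HRE1, which was higher at 3 h and near the 22 °C level at 12 h. ADH1 was the gene of this group that was called in both directions, lower at 3 h and higher at 12 h. The HRE2 difference rests on 7 to 27 reads in each of the 6 libraries compared, and it was not called without replicate 1 at 3 h (1.40), without replicate 2 at 12 h (1.18) or with counts from TPM (1.49, adjusted p = 0.061, edgeR).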

How the results depend on the processing

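Of 597 recomputed log2 fold changes of the members, 554 kept their direction and call, 26 lost the call, 3 gained one and 14 changed sign. Those that changed sign were not called in the first place. PDC1 at 3 h changed without replicate 3 at 22 °C (0.13; range over left-out libraries −0.21 to 0.13). RAP2.3 at 3 h gave −0.027 with upper quartile factors and −0.0087 and −0.024 without replicate 3 at 22 °C and at 3 h (range −0.024 to 0.087). HRE1 at 12 h gave 0.017 with DESeq2, 0.017 with its size factors, 0.012 with counts from TPM, 0.0014 with the 2 groups alone, and a range of −0.18 to 0.10 over left-out libraries, and HRE2 at 12 h gave a range of −0.46 to 0.15. The largest shift of a RAP2.2 transcript changed sign when a library was left out (−1.85 to 6.03 points at 3 h, −0.91 to 6.97 at 12 h, −2.79 to 0.31 between 12 h and 3 h). The calls of ADH1, PDC1, PDC2 and LDH at 12 h held under every alternative run.

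With a fold minimum of 1, the members called were 1 higher and 1 lower at 3 h and 4 higher and 0 lower for 12 h against 3 h; without a fold minimum, 1 was lower at 12 h and 2 lower for 12 h against 3 h. Leaving out a library gave 1 to 3 lower at 3 h, 1 only without replicate 3 at 22 °C. All genes called at a minimum of 1 were 769 higher and 196 lower (3 h), 1801 and 1691 (12 h), and 1150 and 1198 (12 h against 3 h), and without one 1335 were lower at 3 h, 5020 higher at 12 h and 3867 higher for 12 h against 3 h. The carbon genes called higher at 3 h fell to 0 with a minimum of 1, with an adjusted p under 0.01, and over left-out libraries (0 to 1); those lower were 1 with counts from TPM or a minimum of 1 (1 to 2 over left-out libraries), 0 lower at 12 h with a minimum of 1, and 1 lower for 12 h against 3 h without one. The other phytoglobins gave 1 higher at 3 h without a minimum (0 to 1 over left-out libraries), 0 higher at 12 h with upper quartile factors or a minimum of 1, and 1 lower at 12 h with upper quartile factors or without a minimum (0 to 1 over left-out libraries). The oxygen route gave 3 higher at 12 h without a minimum (0 to 1 over left-out libraries); for 12 h against 3 h it gave 0 higher with upper quartile factors or a minimum of 1, 3 without one (0 to 1 over left-out libraries), and 2 lower with upper quartile factors or at least 10 reads in every library (1 to 2 over left-out libraries). The wider low-oxygen list gave 7 lower at 3 h and 13 at 12 h with at least 10 reads in every library, and 8 lower for 12 h against 3 h with a minimum of 1. The regulators gave 3 higher at 3 h (0 to 1 over left-out libraries) and 4 higher at 12 h without a minimum, and with a minimum of 1, 1 higher and 0 lower at 12 h (0 to 2 lower over left-out libraries) and 1 higher and 0 lower for 12 h against 3 h. Where libraries or filters moved a count, the cause was not tested.

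The deviations of same-numbered libraries from their group means correlated at −0.197 to 0.105. Pairs of unlike number were not set beside these, so whether replicate numbers pair the libraries was not settled. With the replicate number as a block, the members called were 5 higher and 3 lower at 3 h, 6 and 0 at 12 h, and 7 and 1 for 12 h against 3 h, the counts of the fit without it, and all genes called were 1393 and 652, 3123 and 3542, and 2199 and 2921.

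Upper quartile factors moved the median of all genes to −0.159 at 12 h, and ended the calls of RAP2.12 at 3 h and for 12 h against 3 h (0.47 and 0.43). TPM ratios at 12 h are smaller than those of normalized counts (21.0 against 24.6 for ADH1). TPM from annotated in place of effective lengths, chosen after seeing the data, gave 652 TPM for ADH1 at 12 h, so levels between genes carry this error. HRE2, with 7 to 36 reads a library, is limited by depth.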
